A study of Homo sapiens and Mus musculus with 19 samples.

Results

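The MS4A and TCN1 locus is a stretch of human chromosome 11 that holds a pair of cobalamin-binding genes, members of the OOSP family and members of the MS4A family side by side. The 10 genes OOSP4B, OOSP2, TCN1, CBLIF, MS4A2, MS4A3, MS4A4A, MS4A4E, MS4A6A and MS4A7 are described here, out of 58676 genes in the K562 count tables. They lay within 567 kb, at chr11:59829273-60395951 of GRCh38 (hg38). The locus was chosen by measured values of these same libraries, because of the strongly negative genotype by shRNA interactions of OOSP4B, TCN1 and MS4A4E, so every change of a locus gene is given as a description, with its standard error (SE) and without a p-value. Chromatin-associated RNA (caRNA), the RNA that stays with the chromatin pellet after cell fractionation, was sequenced in K562, a human leukaemia line with erythroid features. The gene for TET2, a dioxygenase acting on 5-methylcytosine, was either intact (TET2 WT) or knocked out (TET2 KO). Each line also carried a lentiviral shRNA, which was a control (shControl) or directed at MBD6 (shMBD6), the gene of a methyl-binding-domain protein. The groups are called WT shControl, WT shMBD6, KO shControl and KO shMBD6, with 3 libraries each and 12 in all. Per the study's methods the TET2 KO line and its WT came from another laboratory and all lines were kept under puromycin, and whether a line was 1 clone is not given in the sources used here. Nothing in the sources ties the 3 libraries of a group to separate cultures, so the spread between them may be technical. The study's text calls its genome-wide data biological replicates without saying how the cultures were kept apart.

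The MS4A genes encode proteins that cross the membrane several times and sit mostly at the surface of blood cells. MS4A2 is the beta chain of the high-affinity IgE receptor of mast cells and basophils, MS4A3 marks granulocyte and monocyte progenitors, and MS4A4A, MS4A6A and MS4A7 are known from monocytes and macrophages. TCN1 encodes haptocorrin, a cobalamin (vitamin B12) carrier stored in the secondary granules of neutrophils, and CBLIF encodes the gastric intrinsic factor that takes cobalamin through the gut. OOSP2 and OOSP4B belong to the oocyte-secreted protein family.

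The promoters of the 3 genes that led to the choice are shown because each held few CG dinucleotides, the usual site of DNA 5-methylcytosine. Each line gives the 250 bases before the RefSeq start site (GRCh38.p14), 5′ to 3′ on the gene's strand, with CG in capitals. TCN1 was read at chr11:59866488-59866737 on the minus strand, OOSP4B at chr11:60016931-60017180 on the plus strand and MS4A4E at chr11:60243138-60243387 on the minus strand.
TCN1: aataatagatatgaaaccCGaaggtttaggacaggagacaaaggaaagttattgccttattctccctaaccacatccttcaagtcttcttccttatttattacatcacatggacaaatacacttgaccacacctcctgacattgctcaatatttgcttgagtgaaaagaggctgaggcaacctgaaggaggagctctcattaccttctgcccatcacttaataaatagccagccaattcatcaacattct
OOSP4B: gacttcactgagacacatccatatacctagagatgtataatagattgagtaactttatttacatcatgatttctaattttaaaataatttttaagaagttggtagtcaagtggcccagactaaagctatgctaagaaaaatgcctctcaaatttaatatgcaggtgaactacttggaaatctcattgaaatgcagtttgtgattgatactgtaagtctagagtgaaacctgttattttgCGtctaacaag
MS4A4E: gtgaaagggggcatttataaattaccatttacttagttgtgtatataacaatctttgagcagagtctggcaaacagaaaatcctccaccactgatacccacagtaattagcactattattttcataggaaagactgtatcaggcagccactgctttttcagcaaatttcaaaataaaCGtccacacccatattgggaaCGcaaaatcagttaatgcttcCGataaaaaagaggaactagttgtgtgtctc
The TCN1 and OOSP4B windows each held 1 CG and the MS4A4E window held 3. All 10 locus genes had a RefSeq promoter, with 0 (MS4A2) to 5 (MS4A3) CG. Of the 10, 9 held at most 3 CG, against 30.1% of 27305 RefSeq promoters of the same length, whose median was 11. The RefSeq start of OOSP4B, position 60017181, lay inside the longer gene model of the annotation used here, which begins at position 59978020. Letter matches to common haematopoietic motifs were counted on both strands, which describes the letters and not binding. The letters that GATA factors recognise, AGATAA with its variant AGATAG as well as TGATAA with its variant TGATAG, stood in 5 of the 10 windows (CBLIF, OOSP2, MS4A3, MS4A2 and MS4A7) against 22.9% of all promoters. The C/EBP letters TTGCNNAA stood in 4 of 10 (TCN1, MS4A3, MS4A4A and MS4A4E) against 9.13%, the ETS letters AGGAAG in 3 of 10 against 28.7%, and the RUNX letters TGTGGT in 1 of 10, TCN1, against 10.9%. Bases G and C made up 32.4% (OOSP4B) to 46.4% (MS4A3) of the 10 windows, all below the median of the RefSeq promoters. The shares of all promoters were not matched for this base composition. Its part in the differences was not tested, so no enrichment of a motif is read from them.

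MS4A4A and MS4A4E are close paralogues, and a stretch of 121 bases was shared by their upstream windows with 7 differing bases, an identity of 94.2%. It is shown because the pair had different group orders in spite of this likeness. The stretch lay at chr11:60280416-60280536 on the plus strand for MS4A4A, 129 bases before its RefSeq start, and at chr11:60243138-60243258 on the minus strand for MS4A4E, directly before its start. Capitals mark the bases that differ.
MS4A4A: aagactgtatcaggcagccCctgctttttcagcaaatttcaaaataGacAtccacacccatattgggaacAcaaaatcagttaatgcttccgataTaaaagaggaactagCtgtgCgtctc
MS4A4E: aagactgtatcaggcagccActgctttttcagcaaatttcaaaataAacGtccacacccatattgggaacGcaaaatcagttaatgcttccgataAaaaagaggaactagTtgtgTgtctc
The stretch before MS4A4E lies outside its counted span. MS4A4E lay on the opposite strand inside the annotated span of MS4A4A, so that both counts rest on the strand and the mappability of their reads and are uncertain to that extent. The RefSeq start of MS4A4A, position 60280666, lay inside its annotated span, which begins at position 60185657, and all of MS4A4E lay before that start. The span of MS4A4E also held the microRNA gene MIR6503 on the same strand.

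The K562 libraries held 52158403 to 102070223 gene counts. Of these the locus took 0.00404 ± 0.0000299% in WT shControl and 0.0412 ± 0.00127% in KO shControl (SD, n = 3). Genes with any count numbered 28970 to 31932 per library in WT shControl and 33529 to 34601 in WT shMBD6. They numbered 28400 to 29073 in KO shControl and 24480 to 26963 in KO shMBD6. The part of this difference in the changes of low genes was not tested. The targeted gene MBD6 measured, in CPM (counts scaled to a common library size with TMM), 43.3, 42.7 and 38.6 in WT shControl and 31.0, 25.7 and 27.2 in WT shMBD6. It measured 30.6, 30.8 and 29.4 CPM in KO shControl and 30.6, 38.3 and 34.2 CPM in KO shMBD6, so that it was not lower in the KO libraries labelled shMBD6 (log2 change 0.19 ± 0.08 SE, adjusted p = 0.0574 by edgeR's quasi-likelihood test). KO groups are for that reason named by their labels only. TET2 itself measured 121 ± 2.59 CPM in WT shControl and 129 ± 2.22 CPM in KO shControl (SD, n = 3), a count over the whole gene that does not read the deletion. TFRC, the transferrin receptor of erythroid cells, was present at 318 to 578 CPM as group means.

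KO shControl was the highest group and WT shControl the lowest for all 7 locus genes that reached a mean of 1 CPM, and WT shMBD6 and the KO libraries labelled shMBD6 lay between them. Summed over the 10 genes, the locus measured 39.2, 39.3 and 39.9 CPM in WT shControl, 144, 153 and 151 CPM in WT shMBD6, 438, 470.2 and 459 CPM in KO shControl and 149, 151 and 156 CPM in KO shMBD6. The highest and the lowest group stood apart from all others, whereas the shMBD6 groups overlapped with each other. In bulk libraries, fewer cells that make a transcript and less RNA per cell cannot be told apart.

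**Figure D1:**
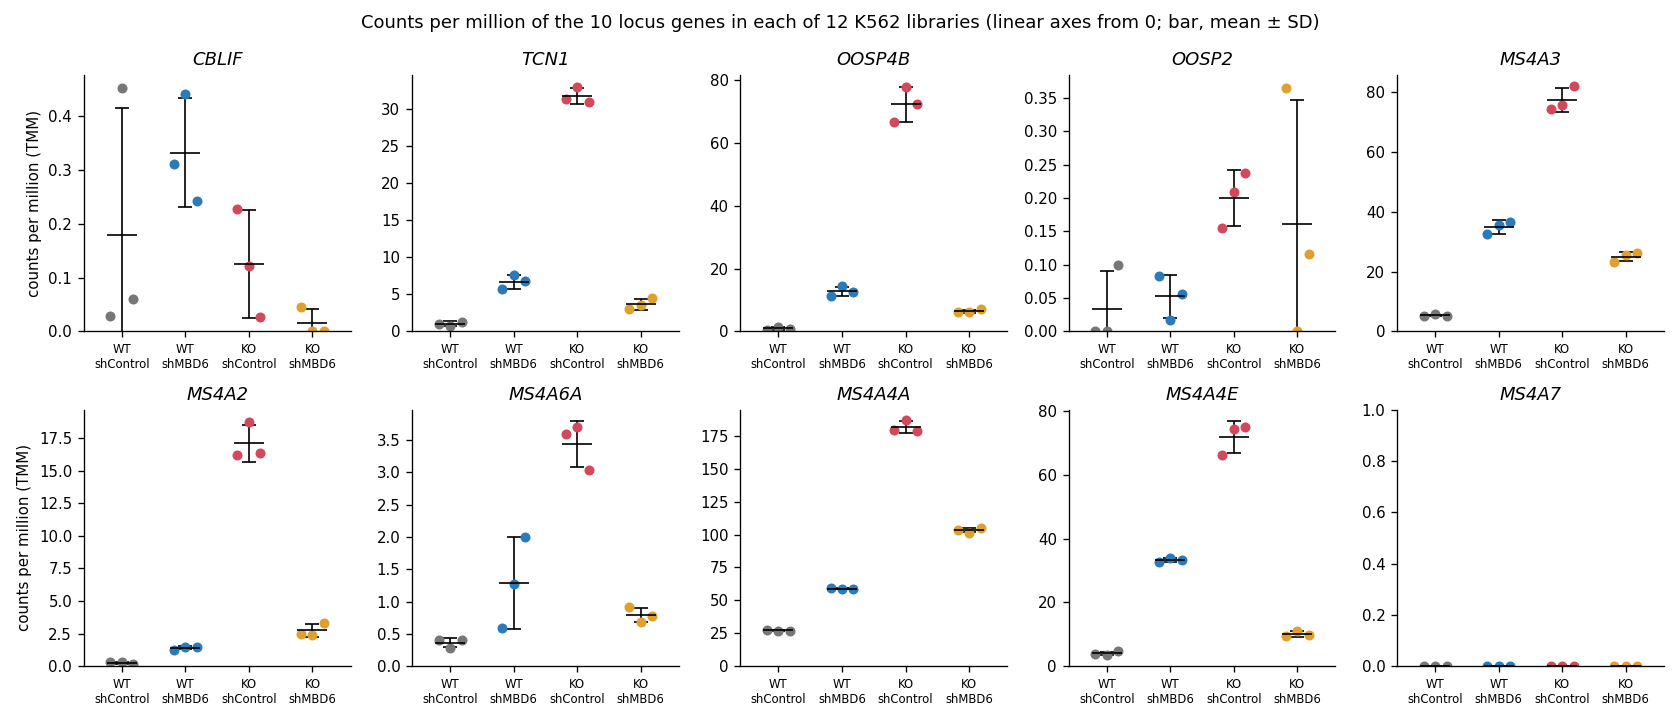
TMM-scaled CPM (linear axes from 0) of each locus gene in the 12 K562 libraries, by group (3 points per group, bars for mean ± SD). KO shControl is highest for the 7 genes with a mean of at least 1 CPM, for example 31.8 CPM for TCN1 against 1.01 CPM in WT shControl, and MS4A7 is at 0.

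TCN1 (minus strand, chr11:59852800-59866489, ENSG00000134827.7) measured 1.02, 0.671 and 1.33 CPM in WT shControl and 5.72, 7.56 and 6.76 CPM in WT shMBD6. It measured 31.4, 33.1 and 31.0 CPM in KO shControl and 3.02, 3.54 and 4.51 CPM in KO shMBD6. No group overlapped with another, and the lowest KO shControl library stood 4.10 times above the highest library of any other group. With shControl, TCN1 was 31.6-fold higher in KO than in WT (log2 change 4.98 ± 0.18 SE). The change from shControl to shMBD6 had opposite signs by genotype, 2.72 ± 0.18 in WT and -3.11 ± 0.16 in KO. The interaction, which is the shMBD6 change in KO minus that in WT, was -5.83 ± 0.24 on the log2 scale.

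CBLIF, the next gene on the same strand (chr11:59829273-59845499, ENSG00000134812.7), was close to the limit of detection. It had 2, 47 and 6 counts in WT shControl, 30, 25 and 17 in WT shMBD6, 19, 7 and 2 in KO shControl and 3, 0 and 0 in KO shMBD6. Replicate 2 of WT shControl stood far above the other libraries of its group, and neighbouring groups overlapped. A count of 3, the limit that a count of 0 allows, corresponded to 0.0288 to 0.0529 CPM per library, with counting error only. The interaction of CBLIF had an SE of 1.77, and no fold is given.

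MS4A3 (plus strand, chr11:60056587-60071115, ENSG00000149516.13) had the highest level per length of the locus, 5.31 CPM per kb of gene in KO shControl. It measured 5.19, 5.65 and 5.27 CPM in WT shControl, 32.4, 35.5 and 36.6 CPM in WT shMBD6, 74.3, 75.4 and 81.8 CPM in KO shControl and 23.2, 25.4 and 26.2 CPM in KO shMBD6. The 4 groups were separate, in the order of TCN1. The log2 change was 3.84 ± 0.08 for KO over WT with shControl, a 14.4-fold difference, then 2.69 ± 0.07 for shMBD6 in WT and -1.63 ± 0.07 in KO, with an interaction of -4.32 ± 0.10.

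MS4A2, the IgE receptor beta chain (plus strand, chr11:60088261-60098467, ENSG00000149534.8), measured 0.318, 0.288 and 0.139 CPM in WT shControl, 1.28, 1.46 and 1.48 CPM in WT shMBD6, 16.2, 18.7 and 16.3 CPM in KO shControl and 2.48, 2.41 and 3.32 CPM in KO shMBD6. It was near background in WT shControl, and the KO libraries labelled shMBD6 lay above WT shMBD6 without overlap, unlike TCN1, OOSP4B, MS4A3 and MS4A4E. The difference of KO over WT was 69.6-fold with shControl (log2 change 6.12 ± 0.24) and 1.96-fold with shMBD6 (0.97 ± 0.20), and the interaction was -5.15 ± 0.31.

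MS4A4A (plus strand, chr11:60185657-60318080, ENSG00000110079.17) was the most counted locus gene in every group and had the interaction closest to 0 of the 7. It measured 27.9, 27.0 and 27.0 CPM in WT shControl, 59.5, 58.9 and 58.5 CPM in WT shMBD6, 179, 187 and 179 CPM in KO shControl and 104, 101 and 105 CPM in KO shMBD6. The groups were separate, with KO shMBD6 again above WT shMBD6. The log2 change was 2.73 ± 0.04 for KO over WT with shControl, 1.11 ± 0.04 for shMBD6 in WT, -0.81 ± 0.04 in KO and -1.93 ± 0.06 for the interaction.

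MS4A4E (minus strand, chr11:60200270-60243137, ENSG00000214787.9), whose upstream stretch is nearly that of MS4A4A, had the group order of TCN1 and not that of MS4A4A. It measured 3.77, 3.55 and 4.67 CPM in WT shControl, 32.8, 33.8 and 33.3 CPM in WT shMBD6, 66.2, 74.4 and 75.1 CPM in KO shControl and 9.44, 11.2 and 9.92 CPM in KO shMBD6. The 4 groups were separate, and WT shMBD6 was 3.27-fold above KO shMBD6 (log2 change of KO over WT -1.71 ± 0.08). Its interaction was -5.88 ± 0.12, against -1.93 ± 0.06 for MS4A4A. Per kb of gene, the level of MS4A4E was 0.0932 CPM against 0.206 CPM for MS4A4A in WT shControl, and 1.68 against 1.37 CPM in KO shControl. The length used for MS4A4A was its whole annotated span, which begins well before its RefSeq start, so these levels rest on unlike gene models.

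MS4A6A (minus strand, chr11:60172015-60184666, ENSG00000110077.14) was low throughout. It measured 0.401, 0.278 and 0.408 CPM in WT shControl, 0.591, 1.27 and 2.00 CPM in WT shMBD6, 3.59, 3.69 and 3.03 CPM in KO shControl and 0.914, 0.684 and 0.779 CPM in KO shMBD6. KO shControl stood apart above and WT shControl below, while the shMBD6 groups overlapped. The log2 change of KO over WT with shControl was 3.24 ± 0.39 and the interaction was -3.94 ± 0.53. MS4A7 (plus strand, chr11:60378485-60395951, ENSG00000166927.12) had 0 counts in all 12 libraries. It lay within MS4A6E and overlapped MS4A14, both on the same strand, and reads in such overlaps are set aside as ambiguous, so its 0 does not show absence.

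OOSP4B (plus strand, chr11:59978020-60031095, ENSG00000255393.2) had the most negative interaction of the locus, -7.16 ± 0.21. It measured 0.581, 1.42 and 0.876 CPM in WT shControl, 11.4, 14.4 and 12.5 CPM in WT shMBD6, 66.7, 77.7 and 72.4 CPM in KO shControl and 6.11, 6.24 and 7.01 CPM in KO shMBD6. The 4 groups were separate, and the lowest KO shControl library stood 4.64 times above every library of the other groups. The log2 change was 6.19 ± 0.17 for KO over WT with shControl, a 72.8-fold difference, 3.68 ± 0.16 for shMBD6 in WT and -3.48 ± 0.14 in KO. OOSP2 (plus strand, chr11:60040409-60048044, ENSG00000149507.6) had 0, 0 and 10 counts in WT shControl, 8, 1 and 4 in WT shMBD6, 13, 12 and 18 in KO shControl and 24, 0 and 9 in KO shMBD6. Its KO shControl libraries lay above both WT groups, while KO shMBD6 overlapped with every group. The change of KO over WT with shControl was 2.50 ± 1.42 and the interaction -0.95 ± 1.94, so that OOSP2 had little resolution at this depth.

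Of the 10 genes, 9 passed the filter on low counts and 7 had a mean of at least 1 CPM. Over these 7, the log2 change ran from 2.73 to 6.19 for KO over WT with shControl, from 1.11 to 3.68 for shMBD6 in WT, from -3.48 to -0.81 for shMBD6 in KO and from -1.71 to 0.97 for KO over WT with shMBD6. The medians were 4.17, 2.69, -2.64 and -0.69, beside -0.05, 0.10, -0.07 and -0.03 over all 26022 tested genes. In each of these comparisons 7 of the 9 had an adjusted p under 0.05, as had 45.8%, 42.4%, 36.4% and 58.6% of all tested genes (23.5%, 17.7%, 15.7% and 30.1% higher, 22.3%, 24.7%, 20.6% and 28.5% lower). In the interaction, where the share of all genes was 49.4% (23.9% higher, 25.5% lower), the 7 ran from -7.16 to -1.93. Those contrasts chose the genes, and nothing is read from the counts. KO over WT with shControl and shMBD6 in WT share the WT shControl libraries, and both shControl groups enter the interaction, so the changes are not independent of each other. OOSP4B, TCN1, MS4A3 and MS4A4E had all 6 WT shMBD6 and KO shControl libraries above the other 6, as had 5.7% of tested genes, and with KO shControl also wholly above WT shMBD6, as had 2.2%.

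The make-up of the locus counts paired the groups differently from the sum. MS4A4A gave 69.2 ± 1.75% of the locus counts in WT shControl and 67.8 ± 1.42% in KO shMBD6 (SD, n = 3). It gave 39.5 ± 1.62% in WT shMBD6 and 39.9 ± 1.00% in KO shControl. The libraries of the first pair of groups (66.8% to 71.1%) did not overlap with those of the second (38.4% to 41.3%), although the summed levels of the shMBD6 groups did. OOSP4B gave 2.43 ± 1.08% of the counts in WT shControl, 8.50 ± 0.768% in WT shMBD6, 15.8 ± 0.652% in KO shControl and 4.24 ± 0.213% in KO shMBD6. MS4A4E took its largest share in WT shMBD6, 22.3 ± 0.448%, against 15.8 ± 0.636% in KO shControl.

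**Figure D2:**
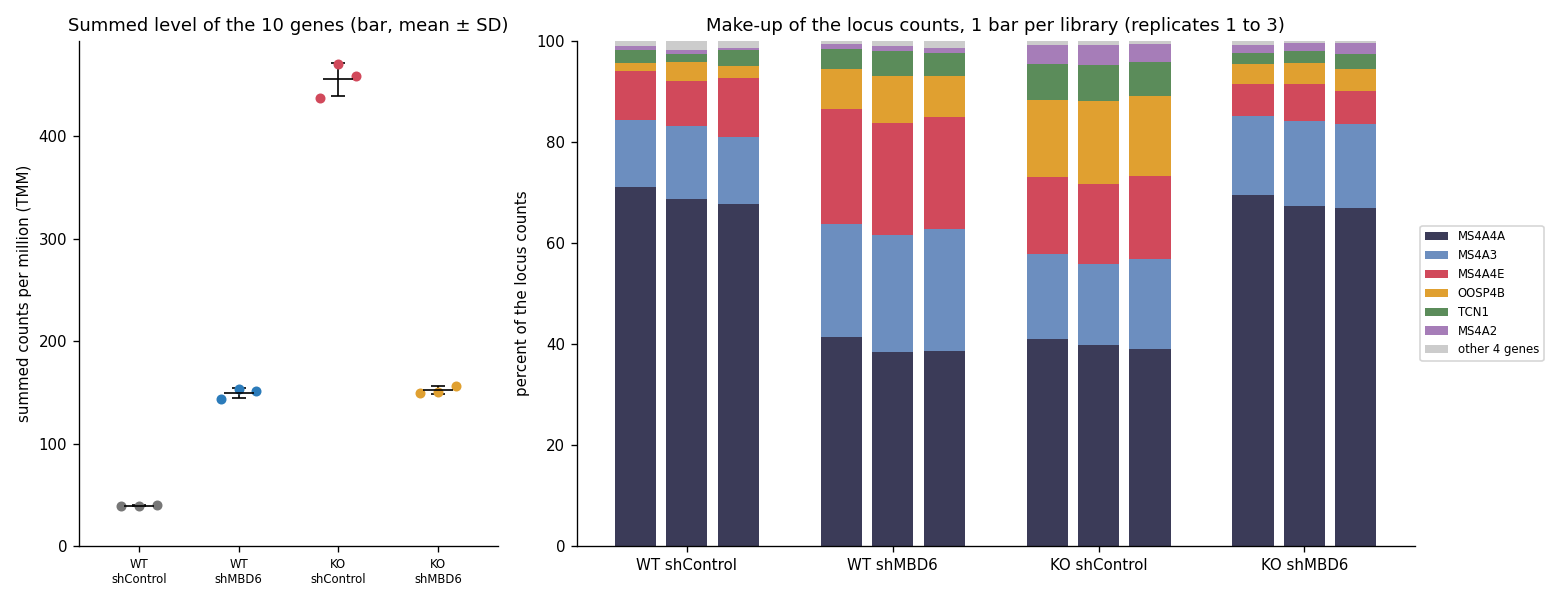
Left, summed CPM of the 10 genes per library (linear axis from 0, bars for mean ± SD, n = 3). Right, percent of the locus counts taken by each gene, with 1 bar per library. The sum is 39.2 to 39.9 CPM in WT shControl and 438 to 470.2 CPM in KO shControl, and MS4A4A takes 66.8% to 71.1% of the counts in WT shControl and KO shMBD6.

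Olfactory receptor genes, which serve smell and are not used by blood cells, gave the background level. Summed over 228 of them on other chromosomes it was 0.0108 ± 0.000126 CPM per kb in WT shControl, 0.0180 ± 0.000510 in WT shMBD6, 0.0161 ± 0.000493 in KO shControl and 0.0101 ± 0.000872 in KO shMBD6 (SD, n = 3). It was higher in the same groups as OOSP4B, TCN1, MS4A3 and MS4A4E, with the higher value in WT shMBD6, and its part in the locus levels was not tested. In CPM per kb of gene, TCN1 stood 6.85 times above this background in WT shControl and 145 times in KO shControl, MS4A3 34.3 and 331 times, and MS4A2 2.26 and 104 times. OOSP4B was only 1.68 times the background in WT shControl and 84.7 times in KO shControl, and MS4A6A 2.66 and 16.9 times, so the folds of OOSP4B, MS4A2 and MS4A6A over WT shControl rest on a group near background. CBLIF was at 0.0930 to 1.13 times the background and OOSP2 at 0.382 to 2.09 times.

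The genes around the locus, taken by position alone, were compared to see how far its changes reached. Of 106 other genes annotated within about 1 Mb on either side, 56 could be tested, 16 before the locus, 7 inside its span and 33 after it. In the interaction 12 of the 56 were higher and 16 lower, 50.0% against 49.4% of all tested genes. Inside the span, beside 25.5% lower and 23.9% higher of all tested genes, 5 of 7 were lower and 0 higher at an adjusted p under 0.05. These were OOSP3, an oocyte-secreted protein gene (-1.93 ± 0.45, adjusted p = 0.000482), and 4 genes with group means under 1 CPM. The 4 were OOSP1 (-4.50 ± 1.75, adjusted p = 0.0325), MS4A6E (-5.62 ± 1.51, adjusted p = 0.00239), the lncRNA ENSG00000214788 (-4.63 ± 1.51, adjusted p = 0.0108) and the processed pseudogene ENSG00000255331 (-7.58 ± 1.64, adjusted p = 0.000222). OOSP1 and MS4A6E did not have the locus order. Both were highest in WT shMBD6, at means of 0.371 and 0.567 CPM, against 0.0994 and 0.129 CPM in KO shControl. The olfactory receptor background was also higher in WT shMBD6 and KO shControl, and its part in these interactions was not tested. OOSP1 and ENSG00000214788 overlap on the same strand, as MS4A6E does with MS4A7 and MS4A14, and their counts are uncertain. These 4 low genes passed the filter on low counts only through the groups where they were high. The 5 of 7 is for that reason not read as a reach of the locus changes. Fitted values of genes near 0 counts in a group depend on the prior count and are no bound on the change. MS4A14 (1.67 ± 1.75, adjusted p = 0.455) and the pseudogene SRD5A3P1 (-2.06 ± 1.88, adjusted p = 0.387) did not pass the test.

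OOSP3 measured 0.844, 0.700 and 1.48 CPM in WT shControl, 1.72, 2.12 and 1.38 CPM in WT shMBD6, 3.49, 2.63 and 2.85 CPM in KO shControl and 1.05, 1.72 and 1.25 CPM in KO shMBD6. KO shControl stood above all other libraries, and the lower groups overlapped. It rose by 1.56 ± 0.32 (log2) in KO over WT with shControl (adjusted p = 0.000111). With shMBD6 the change was 0.78 ± 0.32 in WT (adjusted p = 0.0469) and -1.16 ± 0.31 in KO (adjusted p = 0.00364).

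Just before the locus, MRPL16, a mitochondrial ribosomal protein gene 18.5 kb from CBLIF, and STX3, which encodes a syntaxin of vesicle fusion and lies 23.4 kb from it, had interactions of the sign of the locus and smaller size. STX3 measured 101, 103 and 106 CPM in WT shControl, 137, 140.1 and 136 CPM in WT shMBD6, 170.3, 163 and 171 CPM in KO shControl and 140.3, 149 and 136 CPM in KO shMBD6. KO shControl was highest without overlap and the shMBD6 groups overlapped, as for MS4A6A. The log2 change of STX3 was 0.70 ± 0.04 for KO over WT with shControl (adjusted p = 4.25e-17), and its interaction was -0.66 ± 0.05 (adjusted p = 1.96e-12). The interaction of MRPL16 was -0.86 ± 0.13 (adjusted p = 1.53e-06). MRPL16 and PPP1R32 were the 2 of 56 genes whose 6 WT shMBD6 and KO shControl libraries all lay above the other 6. The lncRNAs ENSG00000254477 (-1.35 ± 0.75, adjusted p = 0.135) and PATL1-DT (-0.32 ± 0.48, adjusted p = 0.613) did not pass the test.

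Past the locus, interactions were positive for most genes with a mean of at least 1 CPM, and not for the genes below that level. MS4A13, an MS4A gene 119 kb after MS4A7, measured 5.02, 6.64 and 6.93 CPM in WT shControl, 4.22, 4.28 and 4.99 CPM in WT shMBD6, 5.21, 4.48 and 5.94 CPM in KO shControl and 8.74, 7.63 and 10.2 CPM in KO shMBD6. The KO libraries labelled shMBD6 were the highest without overlap, and the interaction was 1.23 ± 0.23 (adjusted p = 3.20e-05). Of the 14 tested genes on this side with a mean of at least 1 CPM, 10 were higher and 2 lower in the interaction, beside 23.9% and 25.5% of all tested genes. The median log2 value of the 14 was 0.88, against -0.16 for the 9 such genes before the locus. Over all tested genes, low ones included, the medians were -0.68 for the 33 after the locus and -0.49 for the 16 before it, so that the sides differ in sign only among the genes with a mean of at least 1 CPM. MS4A5 (-1.95 ± 0.89, adjusted p = 0.0687), the transcribed pseudogene LINC00301 (-1.71 ± 1.15, adjusted p = 0.228) and MS4A8 (-3.14 ± 2.47, adjusted p = 0.308) did not pass the test. PPP1R32, 1085 kb after the locus, was lower again (-3.12 ± 0.42, adjusted p = 1.21e-07). It overlaps ENSG00000256591 on the same strand, and its count is uncertain to that extent.

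**Figure D3:**
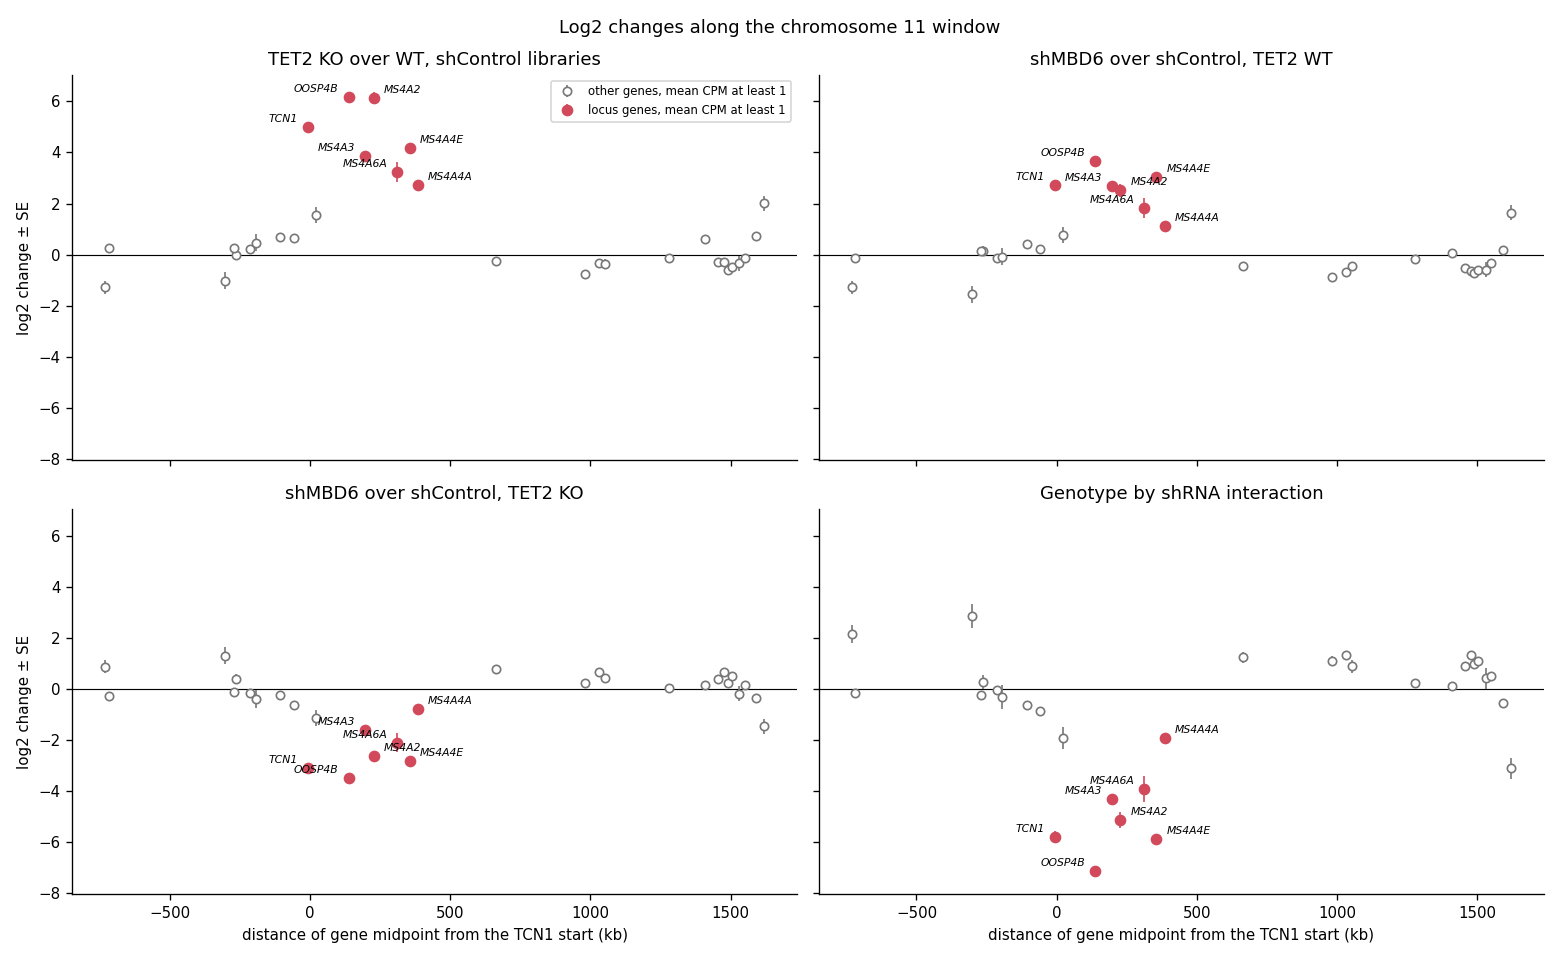
Log2 change ± SE (vertical axis) of genes with a mean of at least 1 CPM against the distance of the gene's midpoint from the TCN1 start in kb, in 4 panels for KO over WT with shControl, shMBD6 in WT, shMBD6 in KO and the interaction (locus genes filled, other genes open). The locus genes lie from 2.73 to 6.19 in the first panel and from -7.16 to -1.93 in the last, with STX3 at 0.70 and -0.66.

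Other MS4A and related family genes gave no common direction. Of 12 in the list, 10 could be tested. In the interaction MS4A13 was higher and MS4A6E lower, with adjusted p as above, beside 23.9% higher and 25.5% lower of all tested genes. TMEM176B, a related membrane protein gene, was at 0.0978 to 0.290 CPM as group means (-1.05 ± 1.80, adjusted p = 0.661).

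Genes of cobalamin uptake and use, the pathway of TCN1 and CBLIF, divided. In the interaction 8 of 15 were higher and 4 lower, beside 23.9% and 25.5% of all tested genes. The median of the list was 0.66 against -0.19 over all tested genes. MTR, the cobalamin-dependent methionine synthase, measured 276, 274 and 284 CPM in WT shControl, 188, 198 and 201 CPM in WT shMBD6, 299, 314 and 308 CPM in KO shControl and 365, 361 and 374 CPM in KO shMBD6. It was lowest in WT shMBD6, and its interaction was 0.76 ± 0.04 (edgeR's quasi-likelihood test, adjusted p = 2.59e-16). MTRR, which reactivates MTR, was higher (0.86 ± 0.07, adjusted p = 1.37e-12), as were LMBRD1 and MMADHC, which carry and process cobalamin inside the cell (0.24 ± 0.06, adjusted p = 0.000620, and 0.51 ± 0.10, adjusted p = 8.18e-05). The 4 lower genes, of which all but AMN are named after their values were seen, were CUBN (-1.17 ± 0.11, adjusted p = 1.57e-10), LRP2 (-0.97 ± 0.23, adjusted p = 0.000516), AMN (-6.63 ± 2.25, adjusted p = 0.0150), which was at 0 counts in KO shMBD6, and the exporter ABCC1 (-0.45 ± 0.09, adjusted p = 0.000146). CUBN and AMN form the receptor for intrinsic factor, and LRP2 takes up other cobalamin complexes. CUBN measured 13.4 CPM in WT shControl, 24.2 CPM in WT shMBD6, 38.0 CPM in KO shControl and 30.4 CPM in KO shMBD6 as means, which is the group order of MS4A2.

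Granulocyte genes, the company of TCN1 and MS4A3, were few and low. Of 20 genes 11 could be tested, and in the interaction 6 were lower and 0 higher, beside 25.5% and 23.9% of all tested genes, with a median of -1.63 against -0.19. With shControl 4 were higher and 1 lower in KO than WT, with shMBD6 6 were higher and 0 lower in WT, and 0 higher and 3 lower in KO. Between the shMBD6 groups 3 were higher and 6 lower in KO than WT. Over all tested genes the higher and lower shares of these 4 comparisons were, in that order, 23.5% and 22.3%, 17.7% and 24.7%, 15.7% and 20.6%, and 30.1% and 28.5%. CSF3R, the G-CSF receptor, measured 2.59, 3.15 and 2.39 CPM in WT shControl, 5.87, 5.41 and 4.39 CPM in WT shMBD6, 8.84, 9.18 and 9.51 CPM in KO shControl and 5.95, 7.33 and 8.38 CPM in KO shMBD6, with an interaction of -1.29 ± 0.23 (adjusted p = 1.55e-05). GFI1, a granulocyte transcription factor (-1.51 ± 0.34, adjusted p = 0.000305), EPX, the eosinophil peroxidase (-3.03 ± 0.72, adjusted p = 0.000711), and LTF, lactoferrin (-2.96 ± 0.68, adjusted p = 0.000478), were lower too. LTF did not have the locus order and was highest in WT shMBD6, at a mean of 1.82 CPM against 0.691 CPM in KO shControl. Its group levels were 0.00559 to 0.0367 CPM per kb, beside an olfactory receptor background of 0.0101 to 0.0180. EPX was near this background in WT shControl, at 0.0113 CPM per kb. The list summed to 4.26 to 6.11 CPM in WT shControl, 11.3 to 12.8 CPM in WT shMBD6, 17.8 to 19.9 CPM in KO shControl and 11.9 to 16.3 CPM in KO shMBD6, and ELANE and RNASE2, granule genes of the lineage, were at 0 in all 12 libraries.

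Among 10 tested mast cell and basophil genes, the company of MS4A2, 3 were higher and 4 lower in the interaction, beside 23.9% and 25.5% of all tested genes. KIT, the stem cell factor receptor, measured 0.360, 0.998 and 1.12 CPM in WT shControl, 2.77, 2.79 and 2.81 CPM in WT shMBD6, 27.6, 28.8 and 28.9 CPM in KO shControl and 18.7, 20.6 and 18.7 CPM in KO shMBD6. Its groups were separate in the order of MS4A2, and its interaction was -2.25 ± 0.24 (adjusted p = 1.54e-09). MITF, a transcription factor of mast cells, was lower (-0.61 ± 0.04, adjusted p = 9.34e-14), whereas the kinases LYN (0.61 ± 0.04, adjusted p = 1.20e-14) and SYK (0.37 ± 0.06, adjusted p = 7.04e-06) and the transcription factor GATA2 (0.19 ± 0.07, adjusted p = 0.0231) were higher. The partner chains of MS4A2 in the IgE receptor, named after their values were seen, did not pass the test (FCER1A -2.25 ± 1.81, adjusted p = 0.319, and FCER1G 0.35 ± 1.09, adjusted p = 0.820). TPSB2 and IL1RL1 were at 0 in all 12 libraries.

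Of 11 tested monocyte and macrophage genes 6 were lower and 1 higher in the interaction, beside 25.5% and 23.9% of all tested genes. ITGAM, the integrin CD11b, was lower (-1.77 ± 0.32, adjusted p = 1.72e-05), as was SPI1, the myeloid factor PU.1 (-0.41 ± 0.10, adjusted p = 0.00116), while the transcription factor CEBPB was higher (0.77 ± 0.16, adjusted p = 0.000167). LYZ, lysozyme, was at 1.21 to 1.79 CPM as group means (0.19 ± 0.44, adjusted p = 0.751). Of 9 tested B and T cell markers 0 were higher and 1, PAX5, was lower (-1.76 ± 0.46, adjusted p = 0.00181), while CD22 and CD3D did not pass the test (adjusted p = 0.117 and 0.186).

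Most tested erythroid genes moved the opposite way to the locus. Of 14 tested, 11 were lower and 1 higher in KO than WT with shControl, 7 lower and 1 higher with shMBD6 in WT, and 9 higher and 1 lower in the KO libraries labelled shMBD6. In the interaction 10 were higher and 1, ALAS2, was lower. Over all tested genes 22.3% were lower and 23.5% higher in KO than WT with shControl, and 24.7% and 17.7% with shMBD6 in WT. With shMBD6 in KO 15.7% were higher and 20.6% lower, and in the interaction 23.9% and 25.5%. The list summed to 1194 to 1229 CPM in WT shControl, 752 to 775 CPM in WT shMBD6, 617 to 628 CPM in KO shControl and 856 to 868 CPM in KO shMBD6, so that its lowest group was the highest of the locus. LMO2, a cofactor of erythroid transcription, measured 249, 244 and 248 CPM in WT shControl, 94.5, 89.2 and 94.6 CPM in WT shMBD6, 55.9, 52.0 and 56.3 CPM in KO shControl and 104, 100.2 and 97.0 CPM in KO shMBD6, with WT shControl highest and KO shControl lowest without overlap. Its interaction was 2.29 ± 0.06 (adjusted p = 4.92e-26), beside TFRC (1.27 ± 0.04, adjusted p = 1.87e-24), NFE2 (0.75 ± 0.08, adjusted p = 1.36e-09) and TAL1 (0.32 ± 0.06, adjusted p = 2.48e-05). HBG1, a fetal globin gene with a near-identical copy and an overlapping gene, was at 0.990 to 6.63 CPM (3.42 ± 0.37, adjusted p = 1.56e-09), and its count is uncertain. The part of these lineage genes in the locus levels was not tested.

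**Figure D4:**
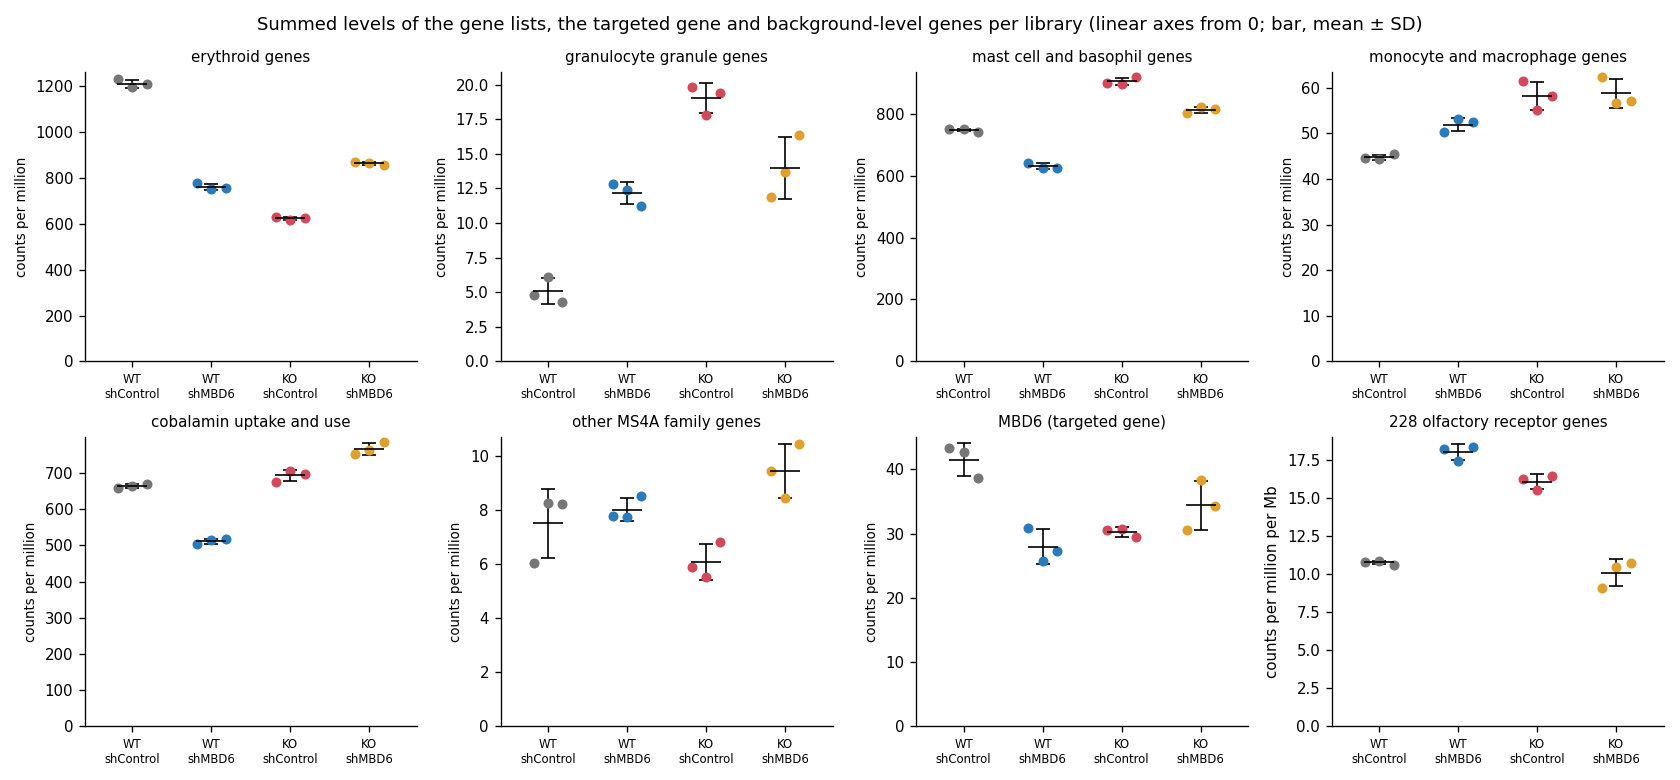
Summed CPM per library of 6 gene lists, the CPM of MBD6 and the level of 228 olfactory receptor genes in CPM per Mb (linear axes from 0, 3 points per group, bars for mean ± SD). Erythroid genes are lowest in KO shControl at 617 to 628 CPM, granulocyte genes are highest there at 17.8 to 19.9 CPM, and the olfactory receptor genes are highest in WT shMBD6.

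Likeness to the locus over the libraries was taken as Pearson's r of log2 CPM with the mean of OOSP4B, TCN1 and MS4A4E. It is a description over 12 libraries that fall into 4 groups and share each library's depth and scaling. Among the other locus genes r was 0.976 for MS4A3, 0.942 for MS4A6A, 0.917 for MS4A2, 0.867 for MS4A4A, 0.572 for OOSP2 and 0.158 for CBLIF, and next to the locus it was 0.937 for STX3 and 0.898 for MRPL16. Such values were not confined to the nearest genes, with 0.899 for PPP1R32, 1085 kb after the locus, whose count is uncertain. Of 15429 genes outside the window with a mean of at least 1 CPM, the 10 most alike had r of 0.992 to 0.997. Among them were ENSG00000279669, SUGCT, PDE7B-AS1, CNTNAP2, PREX1, TMCO4, CPPED1, FGGY and ACAP2, and in each of these the 4 groups were separate in the order of TCN1. That order follows largely from the way these genes were picked. Their relative differences were smaller than those of TCN1, with CNTNAP2 at 126 CPM in WT shControl, 349 CPM in WT shMBD6, 711 CPM in KO shControl and 274 CPM in KO shMBD6 and ACAP2 at 288 CPM in WT shControl, 376 CPM in WT shMBD6, 442 CPM in KO shControl and 346 CPM in KO shMBD6 as means.

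The mouse cluster of these families on chromosome 19 was measured in embryonic stem cells that received siControl or siNsun2, an siRNA for the RNA methyltransferase Nsun2, with 3 libraries each. All 23 Ms4a, Oosp and intrinsic factor genes passed the filter, and 12 were higher and 0 lower in siNsun2 at an adjusted p under 0.05, beside 50.2% of all tested mouse genes called, 25.8% higher and 24.3% lower. Their median log2 change was 0.80. Group means were 0.262 to 2.03 CPM. Per kb they were 0.580 to 2.91 times the level of 1030 mouse olfactory receptor genes, which itself went from 0.0307 ± 0.00163 to 0.0454 ± 0.00201 CPM per kb (SD, n = 3), a log2 difference of 0.56. The part of this background in the cluster's change was not tested.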

How the data were processed

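Chromatin-associated RNA libraries were rRNA-depleted, stranded and sequenced by the authors, who trimmed reads with Trimmomatic 0.39, aligned them with HISAT2 2.2.1 to hg38 or mm10 and counted reads per gene with HTSeq 0.12.4. The deposited values were raw gene counts, 1 table per library. Neither the feature type nor the strand setting of the counting was found in the sources. Of human genes inside an intron of a same-strand gene, 92.9% had 0 counts, against 29.6% for an opposite-strand gene. Counts were for that reason taken as stranded and over whole gene spans, on which levels per kb and remarks on overlaps rest. There were 0 lines for ERCC RNA, so all values are relative to the other genes of a library. Groups came from the labels. All 12 K562 libraries entered 1 fit in R 4.3.3 with edgeR 4.0.16 and limma 3.58.1, using TMM, filterByExpr at a minimum count of 10 (26022 genes kept) and the quasi-likelihood test, two-sided, with Benjamini-Hochberg adjustment across all genes kept. The 6 mESC siRNA libraries were fitted apart (27603 genes), and 1 Pspc1 WT library was not compared. The self-test ran on simulated counts. DESeq2 1.42.0, other scalings and filters, a replicate block and leaving out each library were alternatives. The members and lists were chosen with earlier results of these data known. Named were the 10 members, the 4 nearest tested window genes on each side, all inside the span, at most 6 other called window genes of largest interaction, in each list the 4 genes of highest mean CPM and the called gene of largest interaction, the 10 genes most alike, and TET2 and MBD6. Some of the genes so named are not reported here.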

Additional observations from a re-analysis of the deposited data

Results flagged for a closer look

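Of 53 named genes outside the chosen 10, 41 had a difference between libraries labelled shMBD6 and shControl that differed by genotype (interaction, edgeR's quasi-likelihood test, adjusted p under 0.05), 26 below 0 and 15 above 0, beside 49.4% of all tested genes. In 36 of them the estimate of that difference had opposite signs in WT and KO. The sign alone was counted, so that values near 0 are included, such as NFE2 in KO (0.011) and TET2 in WT (0.002). The share of opposite signs over all tested genes was not computed, so nothing is read from the 36. Some genes were named because they were already called with a large interaction, so the 41 of 53 is no result beside the share of all genes. MBD6 was not lower in the KO libraries labelled shMBD6. Values are log2 interactions, the change in KO minus that in WT, and MBD6 itself was among them. Groups of 3 libraries were not searched for stray samples.

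Near and inside the locus they were MRPL16 -0.86, STX3 -0.66, OOSP3 -1.93, OOSP1 -4.50, ENSG00000214788 -4.63, ENSG00000255331 -7.58, MS4A6E -5.62 and MS4A13 1.23. Further out in the window, the most negative were FAM111B -8.37, ENSG00000255959 -7.34, ZP1 -6.08, ENSG00000255240 -3.46, DTX4 -3.27 and PPP1R32 -3.12. Fitted values of genes near 0 counts in a group, such as FAM111B in KO shMBD6, depend on the prior count and are no bound. The cobalamin genes gave MTR 0.76, LMBRD1 0.24, MTRR 0.86, MMADHC 0.51 and AMN -6.63. The granulocyte genes gave CSF3R -1.29, GFI1 -1.51, EPX -3.03, LTF -2.96 and CEBPE -10.54, of which CEBPE was near 0 counts. The mast cell and basophil genes gave LYN 0.61, MITF -0.61, SYK 0.37, GATA2 0.19 and KIT -2.25, and the monocyte and macrophage genes gave SPI1 -0.41, CEBPB 0.77, ITGAM -1.77 and CD163 -7.39. The erythroid genes gave TFRC 1.27, LMO2 2.29, TAL1 0.32, NFE2 0.75 and HBG1 3.42. The B cell factor PAX5 -1.76 and the targeted genes TET2 -0.45 and MBD6 0.75 complete the set.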

How the results depend on the processing

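Of the comparisons answered, 243 values stayed close in size under the alternatives, and 5 moved. The alternatives were DESeq2, other scalings, other filters, smaller fits, the replicate block and each library left out. Apart from the locus median, these values are counts of genes called in either direction, so that their direction was not compared. Of the values of single lists and locus genes 1392 stayed and 98 moved. The 7 locus genes with a mean of at least 1 CPM kept their signs, while CBLIF (KO over WT with shControl, -0.53 to 1.46) and OOSP2 (shMBD6 in KO, -0.32 to 0.26) each changed sign under 1 setting. Of the called genes of the lists and the window, at most 2 of 76 changed sign with another scaling, and 0 of 74 in the interaction. The median interaction of the locus, -4.32, was -5.21 with a minimum count of 50, which removes its low genes, and -5.31 to -4.28 with 1 library left out. Window genes called for KO over WT with shMBD6 went from 29 to 17 with that filter, which tests fewer genes. With 1 library left out, calls over all genes ran from 11924 to 13178 in the interaction, 10636 to 12965 for KO over WT with shControl, 9608 to 12102 for shMBD6 in WT, 8279 to 9618 for shMBD6 in KO, 14165 to 16086 for KO over WT with shMBD6 and 11769 to 13085 for siNsun2. Total counts in place of TMM moved the median of all genes by -0.18 for KO over WT with shControl. They moved the higher share of calls from 51.4% to 35.3% there, from 43.3% to 59.9% for shMBD6 in KO and from 51.4% to 39.5% for KO over WT with shMBD6, and DESeq2 size factors moved it from 41.8% to 55.1% for shMBD6 in WT. The higher MBD6 in the KO libraries labelled shMBD6 passed the threshold with total counts (edgeR, adjusted p = 0.00159) and with DESeq2 size factors (0.0403). The replicate numbers did not pair the libraries, with same-number correlations between -0.02 and 0.02. With the number as a replicate block the locus median was -4.33 and the interaction called 12873 genes against 12853.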
